A study of Mus musculus with 5 samples.

Results

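The genes described here encode the subunits of oxidative phosphorylation, the final stage of respiration in mitochondria. They were chosen by name: every probe set whose only gene symbol begins with Nduf, Sdh, Uqcr, Cox4, Cox5, Cox6, Cox7, Cox8 or Atp5, or is Cycs. The rule found 101 of the 12488 probe sets on the array, for 74 of the 8251 genes named there, and used no measured value. By respiratory complex these were 38 probe sets for 29 genes of complex I, 4 for 4 genes of complex II, 7 for 7 genes of complex III, 23 for 15 genes of complex IV, 22 for 14 genes of complex V and 1 for the electron carrier Cycs. The other 6 probe sets, for 4 genes (Ndufaf1, Ndufaf4, Sdhaf1 and Sdhaf2), carry the names of factors that assemble complexes I and II and are kept apart from the subunits. A further 10 probe sets that list such a gene beside other symbols stayed outside.

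The arrays measured total RNA of 5 mouse co-cultures in which blood-forming cells met conditions that make osteoclasts, the large multinucleate cells that resorb bone. Cells from Fos+/+ spleen, Fos-/- spleen or Fos+/+ bone marrow, and Fos-/- spleen cells carrying either a deltaNFAT virus or a GFP virus, were each grown with ST2-T stromal cells. All 5 cultures shared that stromal partner, dexamethasone, 1,25-dihydroxyvitaminD3 and a length of 6 days, and each was collected whole. The Fos protein is a partner in the AP-1 transcription factor dimer. Fos-/- means that both copies of the gene are lost, GFP is a fluorescent protein that serves as the virus control, and the labels say nothing further of the deltaNFAT construct, of the strain or age of the animals, or of how many animals gave cells. Each group had 1 array, so a fold describes a pair of arrays, no spread between cultures is known and no test was possible.

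The electron transport chain takes electrons from NADH at complex I and from succinate at complex II, passes them through complex III and the small carrier cytochrome c to complex IV, and hands them there to oxygen. Complexes I, III and IV pump protons as they do so, and complex V, the ATP synthase, lets the protons flow back and makes ATP. Osteoclasts are known for being rich in mitochondria, which supply the ATP that acid secretion onto bone uses. Most subunits are encoded in the nucleus, and only nuclear genes fall under the name rule.

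Values are intensities, the brightness of a probe set on a linear scale that the authors had already scaled to the same trimmed mean in each array. A floor of 19.8, the 40th percentile of all values, marked what could be told from the dimmest probe sets, and ratios were taken on the log2 scale after lower values were raised to it. A probe set entered a comparison when the brighter array reached 2 floors (39.6), and was called higher or lower at 1.5-fold, with 2-fold given beside it. These calls state sizes and carry no test. Each array had 58.3 to 62.2% of all probe sets above this floor, and the ratio of 3-prime to 5-prime control probe sets was 1.02 to 1.31 (Actb) and 0.767 to 0.851 (Gapdh).

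Of the 101 probe sets, 76 (75.2%) lay above the floor in all 5 arrays, 7 in 1 to 4 arrays and 18 in none. Among all 10833 probe sets with 1 gene symbol, 51.4% lay above it in all 5 arrays. The 18 that read nothing above the floor include the only probe sets for Ndufa12, Ndufs4 and Cox6a2, the last a form of a complex IV subunit known from heart and skeletal muscle. Of the 18, 11 carry a letter in their identifier that marks probes shared with other transcripts or chosen under looser rules. Over all 101, 37 carry one, among them the named probe sets of Sdhb, Uqcrc2, Ndufa5, Sdhaf1, Cox6a1 and Cox6c. In 20 genes several probe sets were present, and 12 of those genes had at least 1 probe set above the floor in all arrays and at least 1 under it in all, so a low reading here speaks of the probes as much as of the gene.

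Across the 76 readable probe sets, the Fos+/+ spleen culture was the highest of the 5 in 50 (65.8%) and the lowest in 3. Among all readable probe sets with 1 symbol, it was the highest in 24.6%. The Fos-/- spleen culture was highest in 10, the Fos+/+ bone marrow culture in 9, the deltaNFAT culture in 5 and the GFP culture in 2. The lowest reading fell to the deltaNFAT culture in 24, the GFP culture in 22, the bone marrow culture in 17 and the Fos-/- spleen culture in 10. The variation itself was modest: the highest array read between 1.14 and 4.41 times the lowest, with a median of 1.68.

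**Figure D1:**
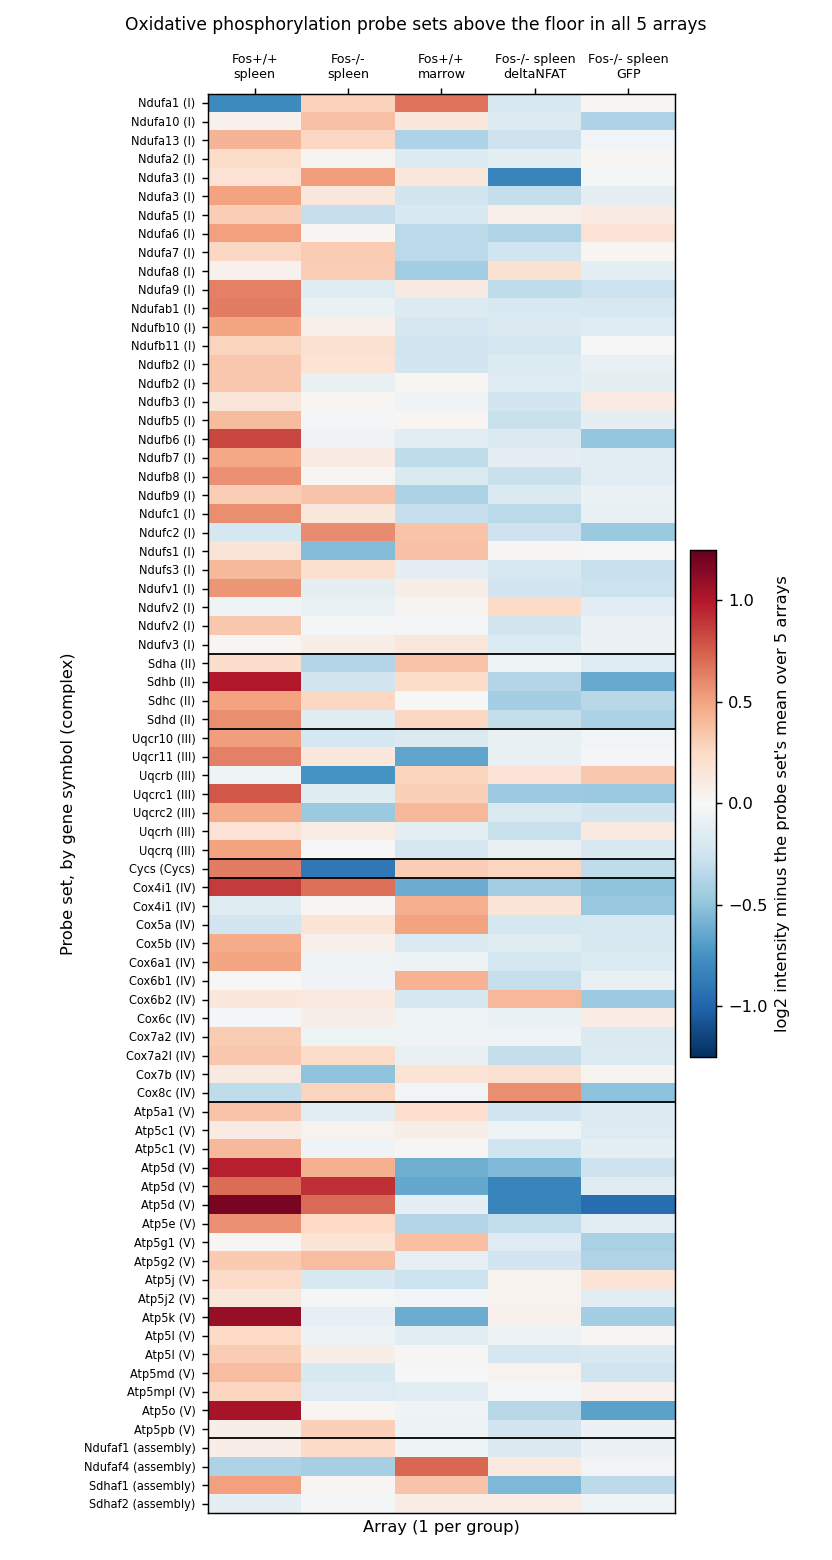
Each row is 1 of the 76 probe sets above the floor in all 5 arrays, ordered by complex, and each column is 1 array. Colour gives the log2 intensity minus that probe set's mean over the arrays (red higher, blue lower), and the Fos+/+ spleen column holds the highest value in 50 of the 76 rows.

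The first comparison asks how the cultures from spleen differ with and without Fos. Most subunits read somewhat higher with Fos. Of the 76 probe sets bright enough, 57 (75.0%) were above a log2 ratio of 0, against 47.4% of all probe sets, and the median ratio was 0.36 against -0.03 overall. Over all 101 probe sets, with those at the floor counted, the median was 0.17. At 1.5-fold, 17 probe sets were higher (22.4%, against 13.8% of all probe sets tested) and 4 were lower (5.26%, against 15.7%). At 2-fold, 4 were higher (background 7.06%) and 2 were lower (background 6.68%), so the shift lay in many modest differences and not in a large share of strong ones. Because each dish was harvested whole, fewer cells of a type and less RNA per cell cannot be told apart in any of these values.

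The make-up of the cultures differed in the same pair of arrays. All 18 bright osteoclast marker probe sets were higher in Fos+/+ spleen by at least 1.5-fold, and their summed intensity was 20132 with Fos and 3535 without. Of the other arrays, the bone marrow culture summed to 14892, the deltaNFAT culture to 5551 and the GFP culture to 3024, and among these markers only Src was under the floor throughout. Of 9 bright neutrophil probe sets, 7 were lower in Fos+/+ spleen, with sums of 1497 and 3351, and the bone marrow culture summed to 9986. Macrophage markers summed to 6808 and 8352 in the spleen pair and to between 6808 and 9537 over the 5 arrays. Of 12 bright macrophage probe sets, 2 were higher in Fos+/+ spleen and 5 were lower, with Marco lower by 7.08-fold, Mrc1 by 3.69-fold and Aif1 by 3.24-fold. The 2 higher ones were Cd68, by 1.66-fold, and Itgam, by at least 2.51-fold, while Csf1r differed by 1.03-fold. Stromal markers summed to 22195 and 26773, with 7 of 25 lower and 1 higher. Erythroid markers summed to between 321 and 520 over the arrays and B and T cell markers to between 936 and 1574, with Alas2, Epor, Cd3d, Cd3e, Cd3g and Cd8a under the floor in all. Their part in the result was not tested.

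By complex, the medians in the spleen pair were 0.28 for complex I (6 of 30 bright probe sets higher, 2 lower), 0.66 for complex II (3 of 4 higher), 0.68 for complex III (4 of 7 higher), 0.07 for complex IV (1 of 12 higher, 1 lower) and 0.32 for complex V (2 of 19 higher, 1 lower). Against the 13.8% of all probe sets that were higher, the share was above in complexes I, II and III, though not far above in complex I, and below in complexes IV (8.33%) and V. All 4 probe sets of complex II and all 7 of complex III read above a ratio of 0. By median, complex IV stood lowest of the 5, and complexes II and III, with few genes each, stood highest. The complex IV median rose when the floor was changed, as given in the last section. The third group of values, for the assembly factors, was near 0, with a median of -0.10 over 3 bright probe sets.

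**Figure D2:**
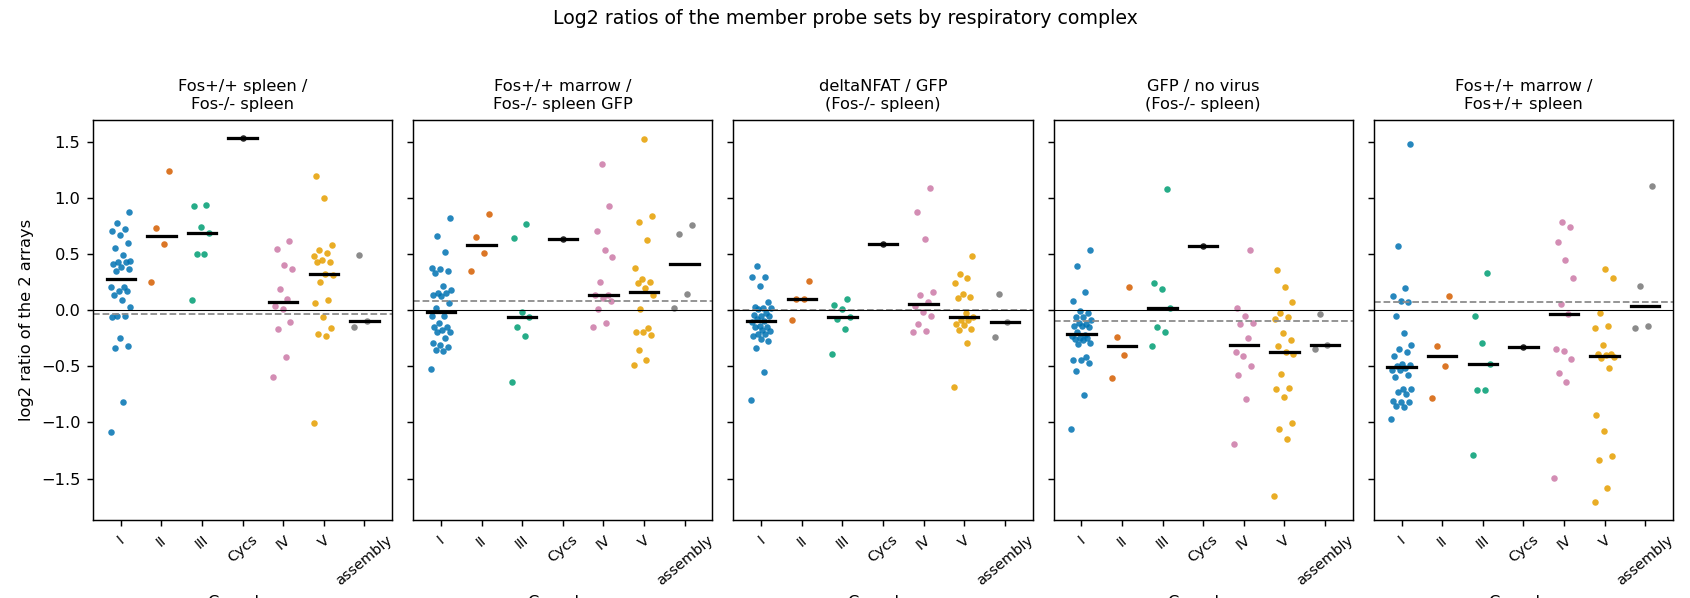
Each point is the log2 ratio of 1 probe set whose brighter array reached 39.6, by complex and in each of the 5 comparisons. Black bars are medians, the dashed line is the median of all probe sets, and in Fos+/+ over Fos-/- spleen the bars of complexes II (0.66) and III (0.68) lie above those of I (0.28), IV (0.07) and V (0.32).

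A second ratio with and without Fos can be formed from arrays that the first does not use, Fos+/+ bone marrow over the Fos-/- spleen culture with GFP virus. It differs from the first in tissue and virus as well as in Fos. Here the median over 77 bright probe sets was 0.13, close to the 0.08 of all probe sets, and 0.02 over all 101. At 1.5-fold, 16 were higher (20.8%, against 20.7% of all probe sets), a share at the background, and 1 was lower (background 13.2%). At 2-fold, 2 were higher (background 9.89%) and 0 were lower (background 6.27%). The subunits lay near the background in higher calls here and below it in lower calls. In this pair all 19 bright osteoclast probe sets were higher 7 of 11 neutrophil probe sets were higher, and 5 of 11 macrophage probe sets were lower with 0 higher.

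Counted over 75 probe sets bright in both ratios, 6 genes were higher by 1.5-fold in each: Sdhb and Sdhd of complex II, Uqcrc1 and Uqcrc2 of complex III, Cycs, and Atp5o of complex V. They make up 6 of the 17 higher in the spleen ratio (35.3%) and of the 14 higher in the marrow ratio (42.9%). Among all probe sets the same overlap was 319 of 671 (47.5%) and of 1056 (30.2%), so the size of the overlap does not set the subunits apart. None of the 75 was higher in the spleen ratio and lower in the marrow ratio, and 2, for Ndufa1 and Ndufc2, were lower in the first and higher in the second. Among all 5490 probe sets bright in both ratios the same counts were 60 and 120, so such reversals were rare there too.

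**Figure D3:**
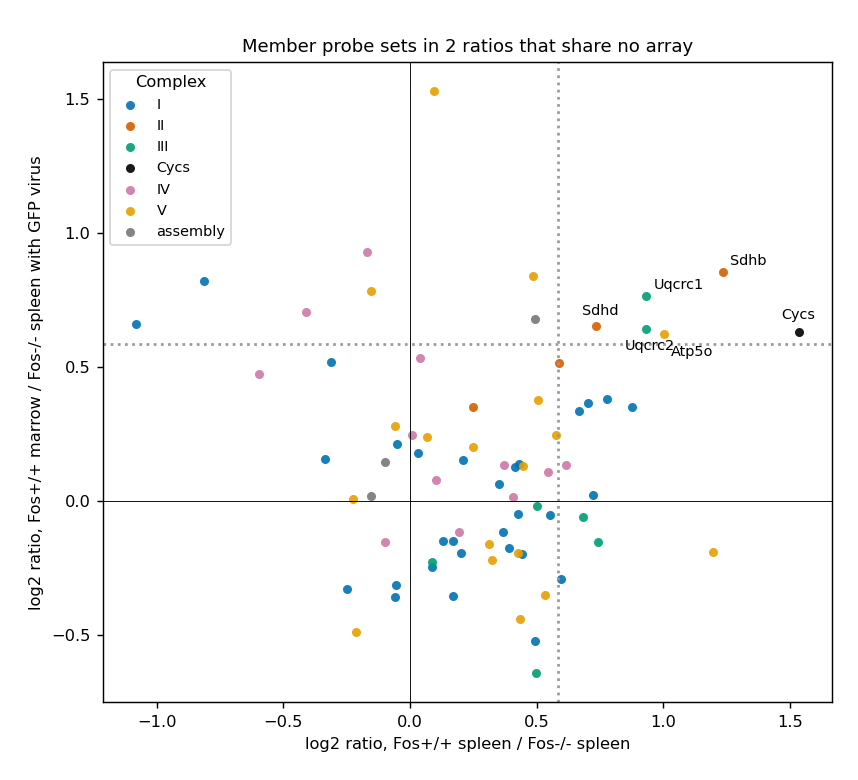
Each point is 1 of the 75 probe sets bright in both ratios, with the log2 ratio of Fos+/+ over Fos-/- spleen on the x axis and that of Fos+/+ bone marrow over Fos-/- spleen with GFP virus on the y axis. Dotted lines mark 1.5-fold, and the 6 named probe sets lie beyond both.

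The start regions of 5 of these 6 genes are shown because the genes were higher together in a pair of ratios that differ in Fos, and because Fos acts in AP-1, which binds DNA. Each runs from 250 bases before the annotated start to its first 30 bases, 280 bases in all, read 5-prime to 3-prime on the gene's strand from RefSeq, build GRCm38.p6. Uqcrc1 lies at chr9:108936398-108936677 on the plus strand, Sdhd at chr9:50603820-50604099 on the minus strand, Sdhb at chr4:140961021-140961300 on the plus strand, Cycs at chr6:50566540-50566819 on the minus strand and Atp5o at chr16:91931601-91931880 on the minus strand. Capitals mark matches on either strand to GCGCANGCG, a motif of NRF1, or CCGGAAG, a motif of ETS factors. Both factor families are known for acting at nuclear genes of mitochondria.
Uqcrc1: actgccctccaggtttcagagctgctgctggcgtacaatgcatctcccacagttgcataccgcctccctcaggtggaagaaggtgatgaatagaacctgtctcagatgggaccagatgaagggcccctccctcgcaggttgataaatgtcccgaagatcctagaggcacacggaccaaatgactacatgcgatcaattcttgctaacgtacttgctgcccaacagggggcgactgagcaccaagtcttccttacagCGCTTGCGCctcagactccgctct
Sdhd: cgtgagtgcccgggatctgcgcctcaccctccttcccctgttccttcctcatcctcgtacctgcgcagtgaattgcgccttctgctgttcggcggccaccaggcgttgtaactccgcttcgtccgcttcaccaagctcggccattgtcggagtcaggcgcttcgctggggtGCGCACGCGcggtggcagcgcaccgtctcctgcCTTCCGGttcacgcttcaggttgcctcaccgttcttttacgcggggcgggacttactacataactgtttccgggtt
Sdhb: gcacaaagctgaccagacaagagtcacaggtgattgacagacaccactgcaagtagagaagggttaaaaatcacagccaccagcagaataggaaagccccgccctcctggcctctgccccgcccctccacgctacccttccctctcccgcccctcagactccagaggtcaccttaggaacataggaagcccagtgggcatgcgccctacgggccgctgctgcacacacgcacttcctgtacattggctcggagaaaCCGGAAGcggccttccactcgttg
Cycs: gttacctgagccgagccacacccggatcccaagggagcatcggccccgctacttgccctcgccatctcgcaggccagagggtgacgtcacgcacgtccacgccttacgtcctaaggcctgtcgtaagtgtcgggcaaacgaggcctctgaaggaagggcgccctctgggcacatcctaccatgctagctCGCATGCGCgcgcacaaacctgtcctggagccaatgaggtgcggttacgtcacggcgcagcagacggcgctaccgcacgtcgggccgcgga
Atp5o: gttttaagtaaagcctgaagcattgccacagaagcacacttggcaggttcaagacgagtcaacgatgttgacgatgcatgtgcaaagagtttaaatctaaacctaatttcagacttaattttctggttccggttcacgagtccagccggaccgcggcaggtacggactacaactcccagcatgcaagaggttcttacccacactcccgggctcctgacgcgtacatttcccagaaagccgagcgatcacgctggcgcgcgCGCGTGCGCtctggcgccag

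The NRF1 motif stands once in Uqcrc1, Sdhd, Cycs and Atp5o, and the ETS motif once in Sdhd and Sdhb. Counting from the annotated start as base 0, the NRF1 matches begin at 6 in Uqcrc1, -79 in Sdhd, -61 in Cycs and 10 in Atp5o, and the ETS matches at -46 in Sdhd and 6 in Sdhb. The AP-1 motif TGANTCA, the only AP-1 form searched for, was found in none of the 5 windows. Over all the member genes with a listed start region, 61 of 74, the NRF1 motif was in 14 (23.0%) against 6.19% of 27025 start regions of the same length, and the ETS motif in 17 (27.9%) against 8.7%. AP-1 stood in 6 (9.84%) against 7.57%, the E-box CACGTG in 5 (8.2%) against 6.89%, and neither the ERR motif TCAAGGTCA (0.4% of all) nor the YY1 motif AAGATGGCG (1.1% of all) was in any. A match describes letters in a window and no binding was measured.

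Complex II, succinate dehydrogenase, is the enzyme shared by the citric acid cycle and the electron chain. Its Sdhb subunit carries the iron-sulphur clusters and read 1045 in Fos+/+ spleen, 444 in Fos-/- spleen, 609 in Fos+/+ bone marrow, 403 with deltaNFAT and 337 with GFP. Both Fos+/+ arrays were above all 3 Fos-/- arrays, by 2.35-fold in the spleen pair and 1.81-fold in the marrow ratio. The only Sdhb probe set carries a letter for shared probes. Sdhd, a membrane anchor, read 858, 516, 688, 469 and 438 in the same order, 1.66-fold and 1.57-fold higher. Its Fos+/+ arrays were again the 2 highest.

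The flavoprotein Sdha read 118, 78.6, 129, 97.3 and 90.6, with log2 ratios of 0.59 in the spleen pair and 0.51 in the marrow ratio. Its call in the spleen pair lies at the edge of the threshold, and quantile normalization of the arrays, which gave a log2 ratio of 0.58, ended it. The other anchor, Sdhc, read 1184, 996, 838, 619 and 657, and neither ratio reached 1.5-fold. It was the brightest probe set of this complex, and its Fos-/- spleen array was above its bone marrow array, so the genotypes overlap. The assembly factor Sdhaf1, which helps to mature Sdhb, read 368, 261, 329, 175 and 205, higher by 1.41-fold and 1.60-fold.

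In complex III, Uqcrc1 and Uqcrc2 encode the large core proteins on the matrix side. Uqcrc1 read 997 in Fos+/+ spleen, 523 in Fos-/- spleen, 713 in Fos+/+ bone marrow, 423 with deltaNFAT and 420 with GFP, 1.91-fold and 1.70-fold higher. Uqcrc2 read 248, 130, 239, 158 and 153, also 1.91-fold higher in spleen and 1.56-fold in the marrow ratio. Its only probe set carries a letter for shared probes. In both genes the Fos+/+ arrays were the 2 highest and the deltaNFAT and GFP arrays lay within 1.03-fold of each other.

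The 5 smaller subunits all read above a ratio of 0 in the spleen pair and all below it in the marrow ratio. Their medians were 0.50 and -0.15, against 0.93 and 0.70 for the core pair, a split by role that was made after the values had been seen. Uqcr10 read 981, 587, 600, 639 and 667, 1.67-fold higher in spleen, with the Fos+/+ bone marrow array below both virus arrays. Uqcr11 read 662, 469, 270, 400 and 422, which made it 1.56-fold lower in the marrow ratio and 2.45-fold lower in marrow than in spleen. Uqcrq, the brightest of the complex, read 1410, 995, 859, 933 and 870, and reached 1.5-fold in neither ratio.

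Uqcrb read 340 in Fos+/+ spleen and 212 in Fos-/- spleen, but 428 in bone marrow, 397 with deltaNFAT and 446 with GFP. It was the only subunit higher by 1.5-fold in the GFP culture than in the Fos-/- culture without virus, at 2.11-fold, so the low value is that of 1 array, Fos-/- spleen. Its probe set carries the letter that marks probes shared between transcripts.

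Cytochrome c, the soluble carrier between complexes III and IV that also triggers the caspase cascade when it leaves the mitochondrion, is encoded by Cycs in somatic cells. Cycs read 98.0 in Fos+/+ spleen, 33.8 in Fos-/- spleen, 77.9 in Fos+/+ bone marrow, 75.6 with deltaNFAT and 50.3 with GFP. At 2.90-fold it had the largest ratio of any subunit in the spleen pair, and it was 1.55-fold higher in the marrow ratio and, with a log2 ratio of 0.59, higher with deltaNFAT than with GFP. The deltaNFAT array was almost level with bone marrow. These are dim readings. With the floor at the 60th percentile (65.1), the highest array, at 98.0, was under 2 floors, so no Cycs call remained. The log2 ratios were then 0.26 in the marrow ratio and 0.21 with deltaNFAT, and that of the spleen pair decreased from 1.54 to 0.59. Quantile normalization ended the marrow and deltaNFAT calls as well, at 0.46 and 0.54.

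**Figure D4:**
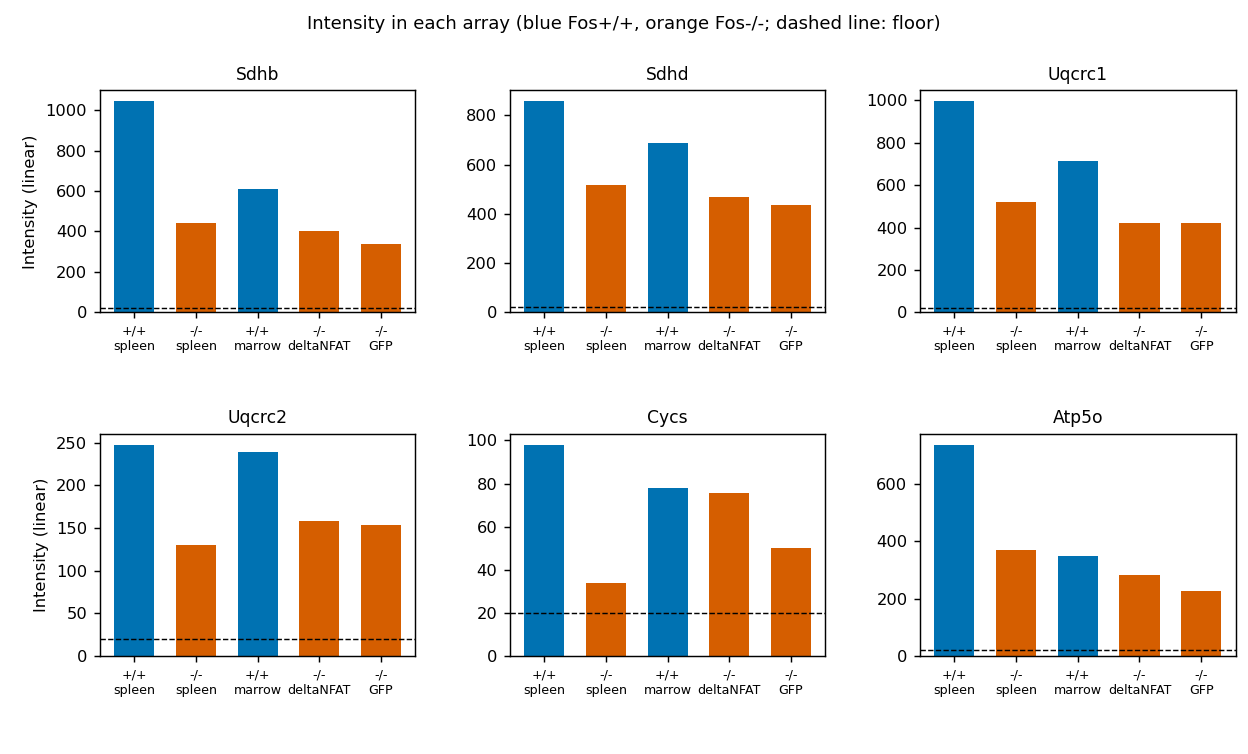
Bars give the intensity of the 6 probe sets higher in both ratios in each of the 5 arrays, 1 array per group and so without error bars, with Fos+/+ cultures in blue and Fos-/- cultures in orange. In Sdhb, Sdhd, Uqcrc1, Uqcrc2 and Cycs both blue bars exceed all orange bars, and in Atp5o the bone marrow bar (350) lies below that of Fos-/- spleen (368).

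Complex V joins a catalytic head to a membrane rotor by stalks. Atp5o, a stalk subunit that holds the head in place, read 736 in Fos+/+ spleen, 368 in Fos-/- spleen, 350 in Fos+/+ bone marrow, 284 with deltaNFAT and 227 with GFP. It was 2-fold higher in the spleen pair and 1.54-fold in the marrow ratio, yet the genotypes overlap because Fos-/- spleen exceeded bone marrow. Atp5k, a small subunit of the membrane part, read 170, 74.2, 52.0, 83.0 and 59.4. Its Fos+/+ spleen array stood alone, 2.29-fold above Fos-/- spleen and 3.27-fold above bone marrow.

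Other subunits of the complex were bright, with smaller ratios. Atp5a1, the alpha subunit of the head, read 1433, 1009, 1287, 936 and 992, with both Fos+/+ arrays above the others but no ratio at 1.5-fold in the spleen or marrow comparison. Atp5l, a small membrane subunit, was the brightest of complex V at 2026, 1631, 1540, 1624 and 1721. Its other probe set read 261, 220, 211, 180 and 184. Atp5g1, which encodes the subunit of the rotor ring, read 61.0, 67.9, 78.6, 54.2 and 45.7, with 1.72-fold in the marrow ratio and no call in spleen. The other Atp5g1 probe set was under the floor in all arrays. A probe set for the paralogue Atp5g2 read 39.7 in Fos-/- spleen and under the floor in all other arrays, at least 2-fold higher there, while a second one for that gene read 443 in that array and 425 in Fos+/+ spleen.

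Atp5d, the delta subunit of the head, is a gene whose probe sets differ widely from each other. It has 5, and their log2 ratios spread over 2.02 units in the marrow ratio and 1.87 between marrow and spleen. One read 537, 384, 218, 132 and 122, another 461, 318, 153, 160 and 196, and a further one 281, 325, 111, 97.2 and 156. All 3 are high in both spleen cultures without virus and carry the letter for shared probes. The other 2 are dim, at 46.9, 43.9, 57.1, 22.1 and 17.2, and at 23.1, 2.5, 26.2, 15.3 and 11.8, and do not show that pattern.

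In complex I, 20 of 30 readable probe sets were highest in Fos+/+ spleen, a share close to the 65.8% of all readable subunit probe sets. None was highest in the GFP culture, which was highest in only 2 of all readable subunit probe sets. The core subunits that carry electrons include Ndufv1, which binds NADH, and Ndufs1, with iron-sulphur clusters. Ndufv1 read 1131 in Fos+/+ spleen, 713 in Fos-/- spleen, 811 in Fos+/+ bone marrow, 657 with deltaNFAT and 643 with GFP, 1.59-fold higher in the spleen pair and 1.26-fold in the marrow ratio. Ndufs1 read 293, 180, 337, 265 and 261, 1.63-fold higher in the spleen pair and 1.29-fold in the marrow ratio. In both genes the Fos+/+ arrays were the 2 highest, at differences of less than 1.5-fold in the marrow ratio. The 5 core probe sets had medians of 0.35 and 0.18 in the spleen and marrow ratios, and the 25 bright accessory ones 0.20 and -0.11, again a split made after the values had been seen.

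Among the accessory subunits, which surround the core, Ndufb6 read 713, 389, 365, 352 and 286, with Fos+/+ spleen alone at the top and 1.83-fold above Fos-/- spleen. The other Ndufb6 probe set was under the floor in all arrays. Ndufa9 read 576, 337, 403, 299 and 310, 1.71-fold higher in spleen and 1.30-fold in the marrow ratio. Ndufab1, the acyl carrier protein of mitochondria, read 427, 259, 242, 240 and 239. Its 4 lower arrays are nearly level, and only Fos+/+ spleen stands out, at 1.65-fold. Ndufa5 read 386, 255, 274, 326 and 336, and its call of 1.51-fold in the spleen pair ended with quantile normalization (log2 ratio 0.57).

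A pair of dim accessory subunits read lower with Fos in spleen. Ndufa1 read 27.3 in Fos+/+ spleen, 57.8 in Fos-/- spleen, 76.2 in Fos+/+ bone marrow, 41.5 with deltaNFAT and 48.2 with GFP, 2.12-fold lower in the spleen pair and 1.58-fold higher in the marrow ratio. The other Ndufa1 probe set was under the floor in all arrays. Ndufc2 read 31.8, 55.9, 47.3, 30.9 and 26.8, 1.76-fold lower and 1.77-fold higher. Neither reached 79.2 in any array, and none of these 4 calls held with the floor at 65.1. The brightest of the complex, Ndufa7, read 1233, 1284, 815, 867 and 1046 and differed by 1.04-fold in the spleen pair. The other 2 probe sets lower in that pair, for Atp5g2 and Cox8c, belong to complexes V and IV.

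Complex IV, cytochrome c oxidase, had the lowest median of the complexes in the spleen pair. Of its 12 bright probe sets, 8 were above a log2 ratio of 0 and 4 below, from -0.60 to 0.61. Cox6c read 1586 in Fos+/+ spleen, 1700 in Fos-/- spleen, 1553 in Fos+/+ bone marrow, 1520 with deltaNFAT and 1725 with GFP, a span of 1.14-fold from lowest to highest. Another Cox6c probe set lay between 2.2 and 23.0, and a further one was under the floor in all arrays. Cox6a1, the widely expressed form of its subunit, read 1870, 1282, 1272, 1140 and 1182, 1.46-fold higher in spleen. Cox7b was the 1 subunit higher at 1.5-fold, at 494, 323, 513, 522 and 467, where the Fos-/- spleen array is the one that is low and both virus arrays lie beside bone marrow.

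Several complex IV subunits have forms known from certain tissues. Cox7a2, the widely expressed form, read 687, 531, 535, 536 and 488, and Cox7a1, known from muscle, rose above the floor only in bone marrow, at 24.0. Cox8a read 25.0 in bone marrow and under the floor in the others, although it is the widely expressed form, so the probe set may not be read as its level. A probe set for Cox8b, a muscle form, read 33.7, 10.2, 58.1, 37.0 and 23.6, 2.46-fold higher in the marrow ratio. The other Cox8b probe set was under the floor in all arrays. Cox8c, known from testis, read 135, 205, 165, 253 and 119, with the deltaNFAT array highest and 2.13-fold above GFP. It was 1.51-fold lower with Fos in the spleen pair, a call that quantile normalization ended (log2 ratio -0.57). The other Cox8c probe set was under the floor in all arrays. Cox6b2, also known from testis, read 152, 151, 120, 185 and 101 on its readable probe set, and Cox6b1, the widely expressed form, 45.4, 44.2, 61.8, 37.4 and 42.7. The levels of different probe sets cannot be set against each other, so no form is said to prevail.

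For Cox4i1, the widely expressed form of subunit 4, a pair of probe sets went opposite ways. One, with the letter for shared probes, read 290, 254, 103, 117 and 111. The other read 38.4, 43.2, 58.4, 47.7 and 30.7. The first was 2.83-fold lower in bone marrow than in Fos+/+ spleen and the second 1.52-fold higher. Cox5a read 43.8, 58.3, 73.4, 44.4 and 45.0 and Cox5b 1255, 947, 803, 818 and 796, so in subunit 5 the bright gene was highest in Fos+/+ spleen and the dim one in bone marrow. The other Cox5a probe set was under the floor in all arrays.

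Of the factors that assemble complexes I and II, Ndufaf4 was the 1 with a 2-fold difference. It read 21.3 in Fos+/+ spleen, 21.0 in Fos-/- spleen, 46.0 in Fos+/+ bone marrow, 30.3 with deltaNFAT and 27.2 with GFP, so bone marrow stood above the rest, 2.16-fold over Fos+/+ spleen and 1.69-fold over GFP. Neither call held with the floor at 65.1, which also ended those of Atp5g1, Cox5a, Cox8b and the dim probe sets of Atp5d, Atp5g2 and Cox4i1. Sdhaf2 and the readable probe set of Ndufaf1 varied by 1.16-fold and 1.33-fold from the lowest array to the highest. The other probe sets of Ndufaf1 and Ndufaf4 were under the floor in all arrays.

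The deltaNFAT virus was compared with its GFP control in Fos-/- spleen cells. The median over 73 bright probe sets was -0.05 against 0.00 for all probe sets. Higher by 1.5-fold were 4 (5.48%, background 8.57%), for Cycs, Cox8c, Cox6b2 and the dim Cox4i1 probe set, and lower were 2 (background 6.63%), for Ndufa3 and Atp5d. At 2-fold, 1 was higher, Cox8c (background 3.56%), and 0 were lower (background 2.74%). Of the 17 bright osteoclast probe sets, 11 were higher in the same pair. Sdhb, Sdhd, Uqcrc1 and Uqcrc2, higher with Fos in both ratios, differed here by 1.20-fold, 1.07-fold, 1.01-fold and 1.03-fold.

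Infection itself was compared in Fos-/- spleen cells, GFP virus over no virus. This comparison has Fos-/- spleen and GFP arrays in common with others, so the values are not independent of those above. The median over 76 bright probe sets was -0.23 against -0.10 for all. Of the 76, 15 (19.7%) lay above 0, against 43.3% of all probe sets. Lower by 1.5-fold were 12 (15.8%, background 17.6%) and higher was 1, Uqcrb (background 18.6%). At 2-fold, 6 were lower (background 7.43%) and 1 was higher (background 11.0%). Of the 12 lower ones, 7 are probe sets of complex V, but these are only 3 genes: 4 probe sets for Atp5d, 2 for Atp5g2 and 1 for Atp5o, at 1.62-fold. With the mean of a gene's probe sets, or without lettered probe sets, the 12 became 7. Subunits of complex III stayed near 0, with a median of 0.02. Of 10 bright neutrophil probe sets, 8 were higher with GFP virus.

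The tissues were compared with Fos present. In Fos+/+ bone marrow over Fos+/+ spleen the median over 77 bright probe sets was -0.39 against 0.08 for all probe sets, and -0.20 over all 101. Lower in bone marrow by 1.5-fold were 23 (29.9%, background 16.0%), and 5 were higher (6.49%, background 24.1%). At 2-fold, 7 were lower (9.09%, background 7.43%) and 2 were higher (2.60%, background 13.5%). Complex I held 11 of the 23, all among the accessory subunits, while none of the 5 core probe sets was lower by that much. The Fos+/+ spleen array enters both this ratio and the spleen pair, so its high readings count in each. Quantile normalization moved the median of all probe sets from 0.08 to -0.03 and that of the subunits to -0.35, while in the spleen pair it gave 0.33 for the subunits and -0.02 for all.

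Also in that pair, 10 of 11 bright neutrophil probe sets were higher in bone marrow 6 of 12 macrophage probe sets were higher and 2 lower, and 6 of 19 osteoclast probe sets were lower and 1 higher. The median log2 ratio of the osteoclast markers was -0.45, beside -0.39 for the subunits. Ctsk, the collagen-digesting protease of osteoclasts, read 2862 in spleen and 2495 in bone marrow, while Nfatc1 was 2.31-fold, Slc9b2 2.97-fold and Tcirg1 2.02-fold lower in bone marrow. The 1 higher was Itgb3, dim at 48.2 in bone marrow and under the floor in spleen, at least 2.43-fold higher. Of the 19 osteoclast probe sets, 16 were below a log2 ratio of 0 and 3 above. Among the subunits of complex I, Ndufb8 read 809, 552, 481, 450 and 499, with bone marrow among the Fos-/- cultures. The part of these markers in the difference was not tested.

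Taking all 5 arrays at once, 18 of 78 bright subunit probe sets (23.1%) read higher in both Fos+/+ cultures than in all 3 Fos-/- cultures, against 14.9% of all probe sets, and 0 read lower in both, against 9.81%. They were 6 of 30 in complex I, 3 of 4 in complex II, 2 of 7 in complex III, 1 of 13 in complex IV, 4 of 19 in complex V, Cycs and Sdhaf1. This ordering asks for no fold, was added after the values had been seen and counts the spleen and marrow cultures together although they differ in tissue.

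Other genes of energy metabolism give the setting. In the spleen pair, where 13.8% of all probe sets were higher and 15.7% lower, the citric acid cycle and pyruvate dehydrogenase had a median of 0.36 (7 of 23 bright probe sets higher, 0 lower), the mitochondrial ribosome 0.35 (8 of 41 higher, 1 lower), carriers and import 0.22 (8 of 31 higher, 1 lower) and beta oxidation of fatty acids 0.21 (2 of 12 higher, 3 lower). Glycolysis, which runs outside mitochondria, had 0.48 (5 of 15 higher, 2 lower). The median of the subunits was close to those of the first and the second of these lists and below that of glycolysis. Further assembly factors and carriers outside the name rule had 0.04 (5 of 19 higher, 1 lower), and regulators of mitochondrial number 0.03 (2 of 8 higher, 0 lower). The 1 lower probe set of carriers and import, for Slc25a3, read 18.1 in Fos+/+ spleen, under the floor, and 155.5 in Fos-/- spleen, at least 7.85-fold lower. It read 173.6 in Fos+/+ bone marrow, 130.5 with deltaNFAT and 149.6 with GFP, so the low value is that of 1 array, Fos+/+ spleen.

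In the marrow ratio, where 20.7% of all probe sets were higher and 13.2% lower, the order differed. The citric acid cycle kept a median of 0.36 (6 of 24 higher, 1 lower), and carriers and import had 0.30 (10 of 32 higher, 1 lower), while the ribosome had 0.12 (4 of 41 higher, 2 lower) beside the 0.13 of the subunits. The share of the citric acid cycle (25.0% higher) was near that background and the share of the ribosome (9.76%) below it. Dlst, a subunit of the 2-oxoglutarate dehydrogenase, read 349, 155, 294, 168 and 143, higher in both ratios like Sdhb and Sdhd of complex II. Cyc1, the cytochrome c1 of complex III whose name falls outside the rule, read 1794, 1142, 1410, 1192 and 912, 1.57-fold and 1.55-fold higher, while its other probe set lay between 1010 and 1076 in all arrays. Hccs, the enzyme that attaches haem to cytochrome c, read 117, 40.9, 142, 84.3 and 76.2, which resembles Cycs in being lowest in Fos-/- spleen. Of the regulators, Ppargc1a, Tfam and Sirt1 were under the floor in all arrays on every probe set, so nothing can be said of them here.

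**Figure D5:**
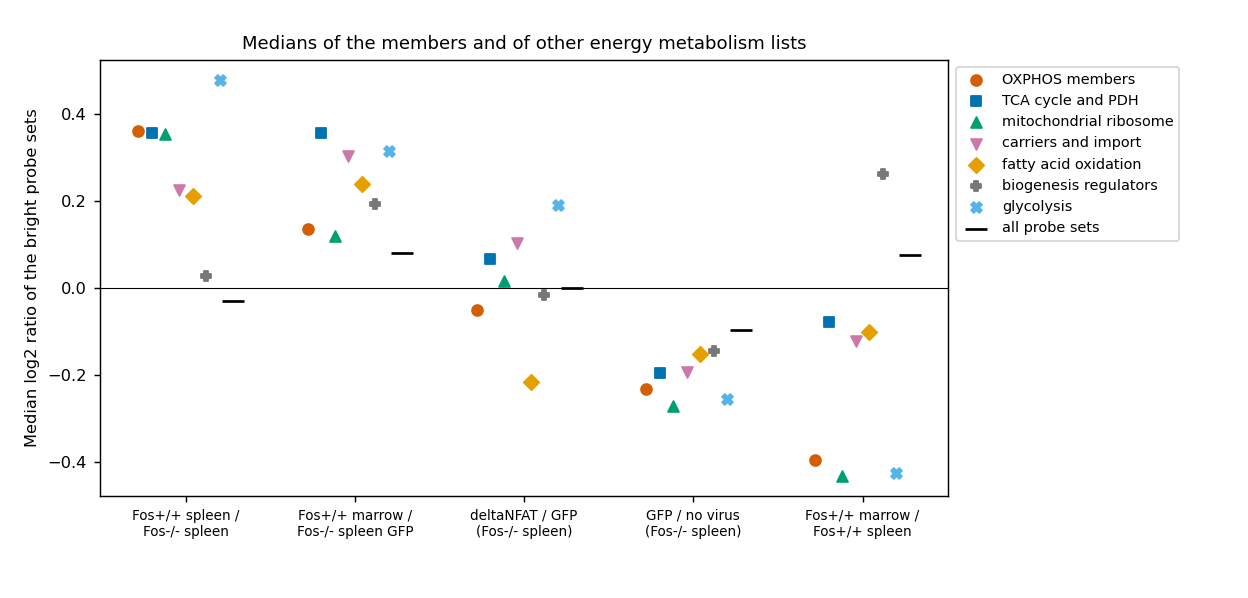
Markers give the median log2 ratio, over bright probe sets, of the oxidative phosphorylation subunits and of 6 other gene lists in each of the 5 comparisons, and short bars the median of all probe sets. In Fos+/+ over Fos-/- spleen the subunits (0.36), citric acid cycle (0.36) and mitochondrial ribosome (0.35) lie together with glycolysis above them (0.48), and in bone marrow over spleen the subunits (-0.39) lie with the ribosome (-0.43) and glycolysis (-0.43).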

How the data were processed

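The deposited table of the authors holds linear intensities, 1 for each probe set in each array. The software that made them is not stated in the sources used here. All 5 value columns matched a sample title. The mean of the deposited values, trimmed by 2% at either end, was equal in all arrays, and 20.3 to 22.4% of an array lay at or below 0, so a background had been subtracted.

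Arrays were scaled to an equal trimmed mean with pandas 2.3.3 and numpy 2.4.6 in Python 3.11.15, floored at the 40th percentile (19.8) and put on the log2 scale. Gene symbols came from the platform annotation: 10833 probe sets had 1 symbol, 396 several, 1193 none and 66 were controls. All 101 members matched a RefSeq gene with the same symbol. The complex was taken from the symbol.

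Each group had 1 array, so no test, p-value or error was computed, and precision is limited by the number of arrays. The code was tested on simulated data. Members, gene lists and comparisons were chosen with earlier results of these data known. Named probe sets were those past 2-fold in any comparison, or past 1.5-fold in the spleen pair with the brighter array at 4 floors (79.2), the brightest of each complex, members with tissue-specific forms, and probe sets of a gene that differed by over 1 log2 unit. For each other list, up to 4 members with the largest ratios were planned, but only some of these are named. Atp5a1, Atp5g1, Ndufb8, Tcirg1, Itgb3, Cyc1, Cd68, Itgam, Csf1r and the genes named as unreadable were chosen after their values were seen. Alternatives changed the scaling, the floor, the brightness filter and the choice of probe sets.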

Additional observations from a re-analysis of the deposited data

How the results depend on the processing

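No paired analysis was possible because each group has 1 array, and for the same reason no array could be left out of a comparison. The values as deposited left all 20 summary values and 72 of 72 named ratios within the limits set for a change. A planned floor at the 20th percentile was not run, since that percentile (-1.2) is not above 0, and the 30th (7.4) was added after seeing the data, as was the filter on a mean of 4 floors. Quantile normalization gave 2 probe sets higher with deltaNFAT and 2 higher in marrow than in Fos+/+ spleen. The 30th percentile floor gave 7 higher with deltaNFAT, 2 higher with GFP virus and 0.19 for complex IV in the spleen pair. The 60th percentile floor (65.1) and the filter on a mean of 4 floors both gave, in the spleen pair, 1 lower and medians of 0.19 for complex IV and 0.43 for complex V, with 7 higher in the marrow ratio, 2 higher and 1 lower with deltaNFAT and 0 higher in marrow than in spleen. Without the brightness filter the medians were 0.17 in the spleen pair (0.15 for complex I), 0.02 in the marrow ratio, -0.11 for GFP virus and -0.20 for marrow over spleen. With the brightest probe set of a gene, 0 were lower with deltaNFAT and the complex V median was 0.43. With the mean of a gene's probe sets, 1 was lower in the spleen pair, 8 were higher in the marrow ratio, 1 higher and 0 lower with deltaNFAT, 7 lower with GFP virus and 0 higher in marrow than in spleen, and the ratio of the dim Cox4i1 probe set in marrow over spleen turned from 0.61 to -0.45. Without lettered probe sets, 0 were lower with deltaNFAT, 0 higher and 7 lower with GFP virus, and the complex III median was 0.50. The cause was not tested, beyond the fewer probe sets that the filters leave. Of the 72 named ratios, the 60th percentile floor left 55 within the limits, the 30th left 70, the probe set mean 65 and quantile normalization 72. Calls near 1.5-fold could still end. Under quantile normalization the calls of Sdha, Ndufa5 and Cox8c in the spleen pair did so, as did the marrow and deltaNFAT calls of Cycs. Under quantile normalization 16.94% of all probe sets were higher and 16.48% lower in the marrow ratio, against 20.7 and 13.2%, and 18.9 and 20.02% in marrow over spleen, against 24.1 and 16.0%.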
